A study of Mus musculus with 2 samples.

Results

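The nuclear genes of oxidative phosphorylation were taken as every gene whose symbol starts with Nduf, Sdh, Uqcr, Cox4, Cox5, Cox6, Cox7, Cox8 or Atp5, which gave 98 of the 32285 genes in the deposited matrices. The rule read the name alone, and the set was proposed with earlier results of these data known. They comprise 7 core and 30 accessory subunits of complex I with 8 complex I assembly factors, 4 subunits of complex II with 4 assembly factors, 8 subunits of complex III, 12 common subunits and 8 tissue-restricted isoforms of complex IV, and 17 subunits of ATP synthase. The annotation lists 97 of them as protein coding and 1, Ndufb1-ps, as a lncRNA.

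They were read in 2 single-cell libraries of immune cells sorted by flow cytometry as viable and CD45-positive from the retinal pigment epithelium (RPE) and choroid of mice. The flox library came from mice labelled IL-17ra fl and the knockout library from mice labelled IL-17RA CKO. Both groups had received sodium iodate (NaIO3), an oxidant toxic to the RPE, at 20 mg/kg by intraperitoneal injection, so the series holds no untreated library. Neither the labels nor the headers say in which cells the receptor was deleted or by which driver, how old the mice were, how many were pooled or how long after injection they were taken.

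Oxidative phosphorylation makes ATP in the inner mitochondrial membrane. Complexes I and II take electrons from NADH and succinate, complex III passes them to cytochrome c, complex IV passes them to oxygen, and ATP synthase uses the proton gradient that complexes I, III and IV build. Most subunits are encoded in the nucleus and imported, while a small core of complexes I, III and IV and of ATP synthase is encoded by mitochondrial DNA, and complex II is wholly nuclear. Assembly factors help to build a complex and do not stay in it. In immune cells, resting lymphocytes are known to draw on this pathway, and several complex IV subunits have isoforms better known from muscle, lung or testis.

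Transcription factors that read short promoter motifs, NRF1 and the ETS family among them, are known regulators of these genes. The RefSeq promoter table (GRCm38.p6) held 79 of the 98 genes, each from 250 bases before the start to shortly after it. On either strand, the NRF1 motif, a palindrome of 10 bases shown in capitals below, was in 7 of the 79 windows (8.86%), against 1.07% of the windows of all 27025 genes in the table. The YY1 motif AAGATGGC was in 10 (12.7%) against 3.19%, and the cyclic AMP response element TGACGTCA in 4 (5.06%) against 2.03%. The ETS motif CCGGAAGT was in 5 (6.33%) against 4.31%, and the SP1 motif GGGGCGGGG in 11 (13.9%) against 12.9%. Among the 8717 table genes with enough UMIs to be compared between gates, the shares were 2.44% for NRF1, 5.70% for YY1, 3.73% for the cyclic AMP response element, 9.81% for ETS and 24.4% for SP1. The TATA motif TATAAAA was in 3 of the 79 windows (3.80%), against 6.39% of all and 3.15% of the genes compared between gates. The 3 promoters below, chosen after their values were seen, carry the NRF1 or the ETS motif (capitals). Ndufaf4 was higher in T cells than the mean of the other gates, with flox B cells close behind. Its window is at chr4:24897833-24898082 on the plus strand. Cox6a1, the common counterpart of the muscle isoform Cox6a2, has it at chr5:115348982-115349208, and Uqcr11, low in B cells, at chr10:80406831-80407071, both on the minus strand. Each is printed 5′ to 3′ for up to 250 bases before the RefSeq start, cut by 23 bases in Cox6a1 and 9 in Uqcr11 where the GENCODE annotation already has an exon of the gene.
Ndufaf4: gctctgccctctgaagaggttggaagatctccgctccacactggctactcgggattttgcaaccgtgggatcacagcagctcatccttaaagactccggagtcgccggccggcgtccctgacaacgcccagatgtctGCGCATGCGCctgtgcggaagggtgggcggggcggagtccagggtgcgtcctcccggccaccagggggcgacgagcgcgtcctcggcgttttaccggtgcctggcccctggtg
Cox6a1: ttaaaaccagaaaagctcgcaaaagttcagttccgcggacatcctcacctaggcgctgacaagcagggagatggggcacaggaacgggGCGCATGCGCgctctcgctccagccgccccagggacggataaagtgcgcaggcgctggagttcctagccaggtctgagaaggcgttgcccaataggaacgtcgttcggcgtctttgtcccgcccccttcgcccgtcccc
Uqcr11: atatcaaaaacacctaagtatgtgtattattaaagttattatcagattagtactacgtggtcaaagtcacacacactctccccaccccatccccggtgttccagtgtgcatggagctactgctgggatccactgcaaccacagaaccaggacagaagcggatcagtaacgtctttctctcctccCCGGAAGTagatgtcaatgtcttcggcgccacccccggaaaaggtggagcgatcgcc
A match is a description of letters: of the 12 genes low in B cells that had a window, 2 held the ETS motif and 0 the NRF1 motif, against 3 and 7 of the 64 other members compared between gates.

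Barcodes with at least 1000 unique molecular identifiers (UMIs, one per captured transcript) and under 10% mitochondrial UMIs were kept: 3420 in the flox and 3982 in the knockout library, with medians of 8741.5 and 7714 UMIs. The libraries shared 4 barcodes of at least 1000 UMIs. Cells were gated by a few transcripts, which gave, in flox and knockout, 632 and 1007 B, 1378 and 1663 T, 211 and 276 NK, 416 and 312 classical monocyte, 545 and 523 nonclassical monocyte and 203 and 150 dendritic cells. The gates overlap: 222 of the 416 flox and 183 of the 312 knockout classical monocytes were in several gates. So were 196 of the 545 flox and 157 of the 523 knockout nonclassical monocytes, and 79 of the 203 flox and 61 of the 150 knockout dendritic cells. Other markers of each type were high in its gate (summed B markers 2149 CPM, that is UMIs scaled to a common total, in flox B cells and 17.7 in flox T cells), whereas the dendritic gate also holds cells with the plasmacytoid markers Siglech and Ccr9. Not all gates were so distinct. Dendritic markers summed to 6380 and 5884 CPM in the dendritic gate (flox and knockout) and to 4069 and 3870 CPM in B cells. Classical monocyte markers summed to 1777 and 1410 CPM in the dendritic gate. RPE markers summed to 1.56 CPM in flox and 580 CPM in knockout classical monocytes. Il17ra, the targeted gene, had 132 CPM over all flox and 123 CPM over all knockout cells, and at 240 and 230 CPM in classical monocytes. These reads count transcript 3' ends and the deleted part is not given, so they do not check the labels. With 1 library per group there is no replicate error and no test: intervals are exact 95% intervals that cover counting error only, and the genotype cannot be told apart from any other difference between the libraries.

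B cells had the smallest share of UMIs from these genes. In the flox library the 98 genes together took 1.38% of UMIs in B cells, 1.70% in T cells, 1.72% in nonclassical monocytes, 1.89% in NK cells, 1.92% in classical monocytes and 1.96% in dendritic cells. In the knockout library the shares were 1.36% in B cells, 1.66% in nonclassical monocytes, 1.67% in T cells, 1.82% in NK cells, 1.86% in dendritic cells and 1.89% in classical monocytes. The B gate was the lowest and the NK, classical monocyte and dendritic gates the 3 highest in both, and T cells and nonclassical monocytes changed places. The order of T cells and nonclassical monocytes also depended on the cells used. With cells in exactly 1 gate, flox nonclassical monocytes were at 1.61% and flox T cells at 1.70%, the knockout order. In knockout cells with Y-linked UMIs alone, T cells were at 1.66% and nonclassical monocytes at 1.69%, the flox order. The mean of the 3 myeloid gates over the mean of the 3 lymphoid gates was 0.17 on the log2 scale in flox and 0.16 in knockout. The lymphoid mean includes the low B gate, and NK cells stood above nonclassical monocytes in both libraries.

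**Figure D1:**
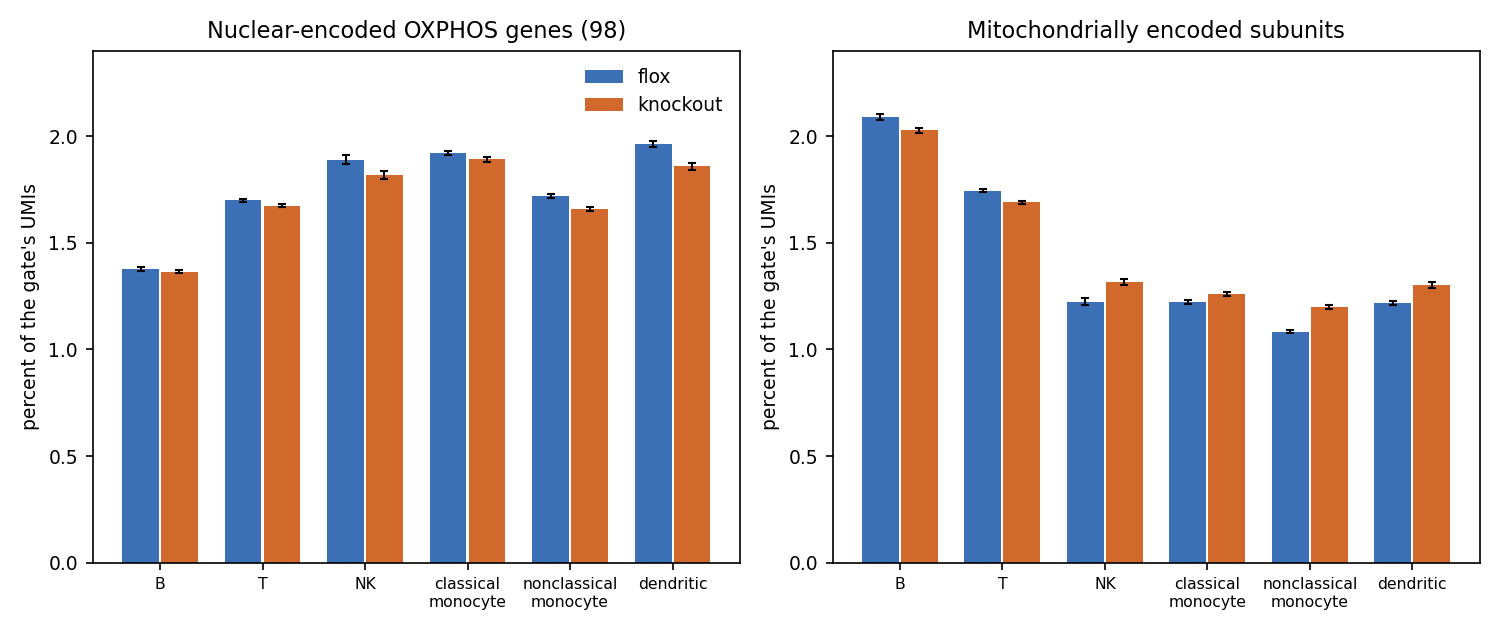
Percent of each gate's UMIs from the 98 nuclear genes (left) and from the 13 mitochondrially encoded subunits (right) in the flox (blue) and knockout (orange) libraries; bars start at 0 and error bars are 95% counting intervals. Nuclear genes were lowest in B cells, at 1.38% and 1.36%, where the mitochondrially encoded subunits were highest.

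Cytosolic ribosomal protein genes took 24.1% of UMIs in flox B cells, 25.7% in T cells, 17.8% in NK cells, 17.1% in classical monocytes, 15.6% in nonclassical monocytes and 20.6% in dendritic cells. When mitochondrial and ribosomal protein UMIs were left out of the total, the myeloid over lymphoid difference was 0.083 in flox and 0.065 in knockout. On that scale B cells were still lowest, at 1.86% and 1.89%, and T cells, at 2.34% and 2.32%, stood above NK cells, at 2.33% and 2.23%. B cells were lowest in all 32 orders of the gates, from 16 settings in each of the 2 libraries.

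Gene by gene, 92 of the 98 members reached 200 UMIs when the gates and libraries were added up. B cells had the lowest level of 56 of the 92 members (60.9%) in both libraries, against 13.6% of all 11157 genes that reached the same minimum. The median member in B cells was 0.761 times the mean of the other 5 gates in flox and 0.775 times in knockout, while the median of all genes was 0.965 and 0.947. A member was called when it was at least 1.5-fold from the mean of the other 5 gates in the same direction in both libraries. In B cells 14 members were called lower, where the background was 25.1% of all genes, and 0 were called higher, where it was 13.0%. The share called lower, 14 of 92, was below that background. The count moved with the cells and scaling used: 5 of 92 when mitochondrial and ribosomal protein UMIs were left out of the total (22.6% of all genes), 7 of 92 in cells with Xist alone (23.2%) and 8 of 83 in cells thinned to 1000 UMIs (23.8%). In cells with Y-linked UMIs alone it was 25 of 87, above the 23.7% of all genes.

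**Figure D2:**
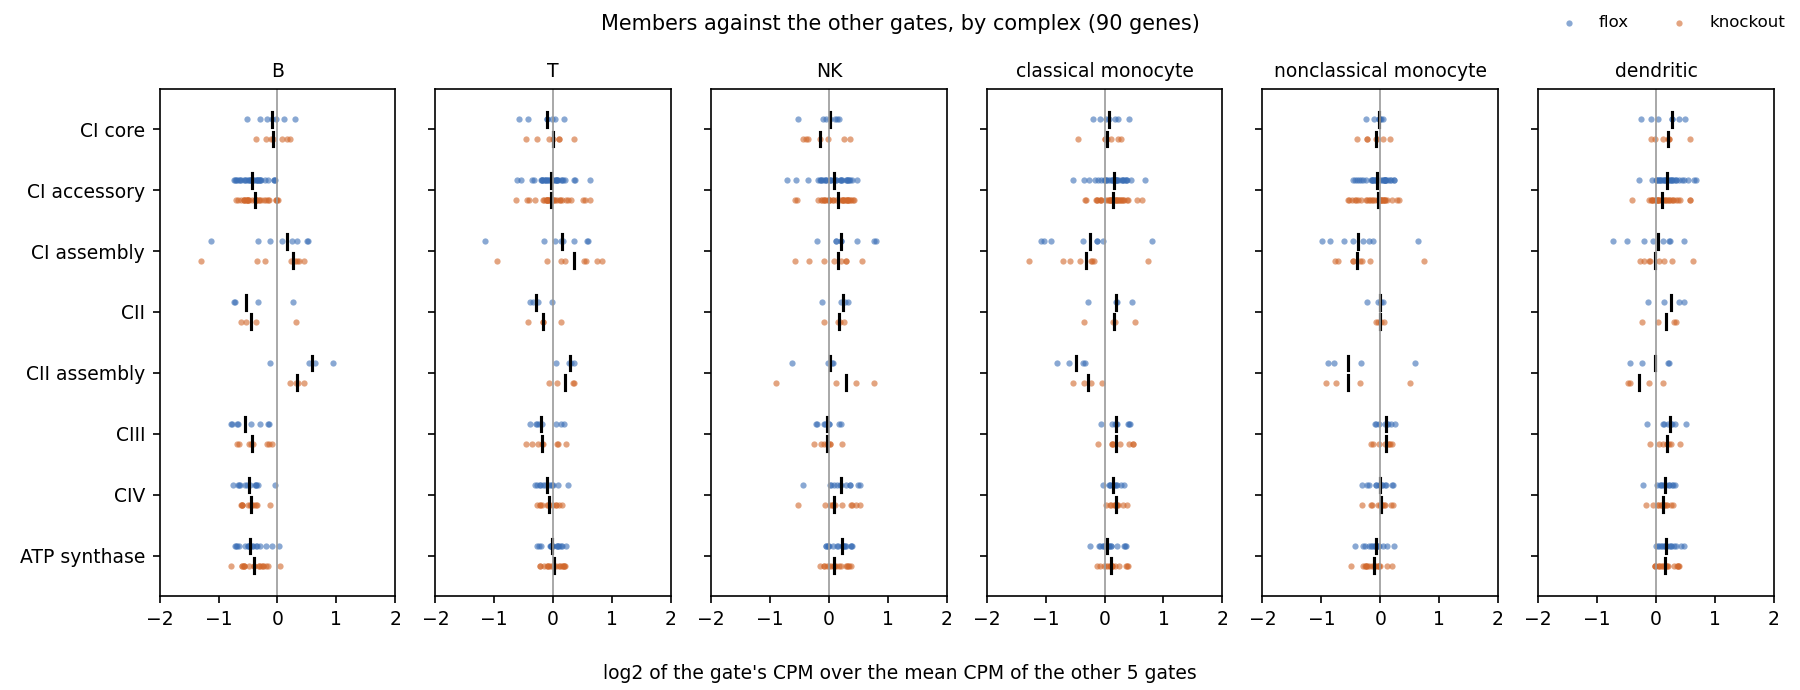
Each point is 1 of 90 members, grouped by complex (CI to CIV and ATP synthase), at the log2 of its CPM in a gate over its mean CPM in the other 5 gates; ticks are medians, blue is flox and orange is knockout. Cox6a2 and Cox6b2 are left out because their folds lie off the axis. In the B panel the complex III, complex IV and ATP synthase medians lie left of 0 and those of the complex I and complex II assembly factors right of it.

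Complex I is the entry point for NADH electrons. Its 37 subunit genes together were higher than in B cells in every other gate, from 1.20 times in T cells to 1.43 times in dendritic cells in flox, and from 1.18 times in T cells and nonclassical monocytes to 1.35 times in classical monocytes in knockout. The 30 accessory subunits, which surround and stabilise the catalytic core, carried this: 1.44 times the B level in flox and 1.39 times in knockout classical monocytes. The 7 core subunits, which hold the flavin and the iron-sulfur clusters, were at 1.16 and 1.09 times in the same gate, and at 0.984 and 1.004 times in T cells. Ndufs1, the largest core subunit, was at 39.2 and 35.8 CPM in B cells (flox and knockout) and at 29.5 and 24.3 CPM in classical monocytes, so this core gene went the other way. Ndufv1, the flavin-binding subunit, was between 31.0 and 40.2 CPM in all 6 flox gates and between 26.8 and 39.4 CPM in the knockout gates.

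Single accessory genes stood apart between gates, as did some assembly factors. Ndufv3 was at 179 and 168 CPM in T cells, 150 and 144 CPM in NK cells and 86.5 to 122 CPM in the other 4 gates. It was 1.54 and 1.55 times the other gates in T cells, 1 of 2 members called higher there, where the background was 16.1%. Ndufb1-ps, the annotated lncRNA that stands for the mouse Ndufb1 gene, was at 716 and 632 CPM in classical monocytes and at 341 and 305 CPM in T cells. It was called higher in classical monocytes and lower in T cells, and it overlaps Cpsf2 on the other strand. Ndufb6 was at 44.7 and 43.2 CPM in B cells and at 62.0 CPM or more in each of the other gates. Ndufa1 was at 147 and 136 CPM in B cells and above 200 CPM elsewhere.

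Complex I assembly factors did not follow the subunits. Ndufaf7, a methyltransferase that modifies a core subunit, was at 45.1 and 47.7 CPM in classical and 41.2 and 48.0 CPM in nonclassical monocytes, but at 14.6 and 14.3 CPM in B cells and 14.3 and 18.0 CPM in T cells. It was 1 of 3 members called higher in classical monocytes (background 11.6%) and the only member called higher in nonclassical monocytes (11.5%), and it was among 4 called lower in T cells (19.6%). Ndufaf4 went the opposite way, at 30.5 and 35.4 CPM in T cells, 29.2 and 29.0 CPM in B cells and 12.6 and 15.8 CPM in classical monocytes. Ndufaf2 was at 13.1 and 17.6 CPM and Ndufaf5 at 3.75 and 3.25 CPM in classical monocytes, against 29.4 and 33.1 CPM and 7.52 and 8.61 CPM in B cells. These 3 factors and Cox6a2 were the 4 members called lower in classical monocytes, where the background was 28.1%. In nonclassical monocytes 5 were called lower, Ndufaf2, Ndufaf5, Sdhaf3, Sdhaf4 and Cox6a2, against a background of 23.2%.

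**Figure D3:**
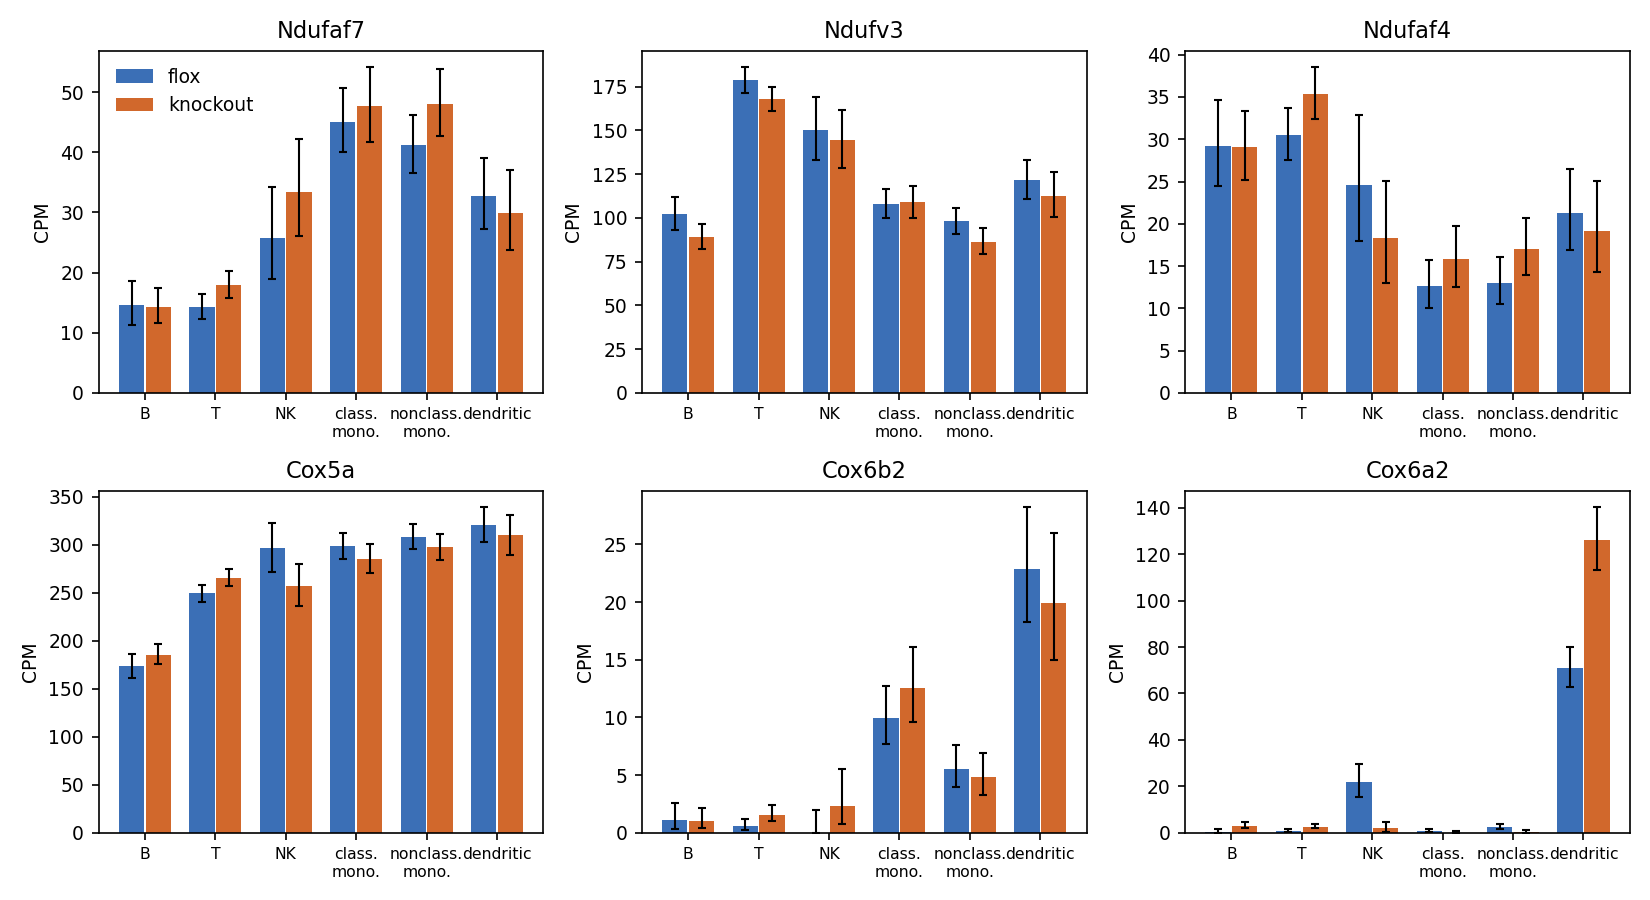
CPM of 6 members in the 6 gates of the flox (blue) and knockout (orange) libraries, with 95% counting intervals and axes that start at 0. Ndufaf7 was highest in both monocyte gates, Ndufv3 and Ndufaf4 in T cells, and Cox6b2 and Cox6a2 in the dendritic gate, while Cox5a was lowest in B cells. For Ndufaf4, flox B cells were close behind T cells.

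Complex II, succinate dehydrogenase, links the citric acid cycle to the chain. Its catalytic subunit Sdha was at 84.3 and 87.1 CPM in B cells, 72.3 and 78.6 CPM in T cells, 87.4 and 80.0 CPM in NK cells and 59.4 to 69.7 CPM in the myeloid gates. Sdhd, a membrane anchor, went the other way, from 31.0 and 32.7 CPM in B cells to 62.4 and 63.1 CPM in classical monocytes. Sdhb, the iron-sulfur subunit, was at 94.3 and 95.4 CPM in B cells and 129 and 132 CPM in classical monocytes, and the other anchor, Sdhc, was at 21.7 and 24.7 CPM and 37.3 and 36.7 CPM. The subunits of 1 complex thus differed in which gate was high. The 4 assembly factors together were lower than in B cells in every other gate, from 0.588 times in classical monocytes to 0.884 times in T cells in flox, and from 0.688 times to 0.986 times in NK cells in knockout. Sdhaf1, which delivers iron-sulfur clusters to Sdhb, was at 15.8 and 12.2 CPM in NK cells and was called lower there with Cox6b2, where the background was 18.7%.

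Complex III subunits together were 1.51 and 1.42 times the B level in classical monocytes and 1.27 and 1.21 times in T cells. Uqcrq and Uqcr11, small subunits, were both called lower in B cells: Uqcrq was at 195 and 181 CPM there and 389 and 338 CPM in classical monocytes, and Uqcr11 at 103 CPM in both libraries against 209 and 205 CPM. Uqcrfs1, the Rieske iron-sulfur subunit, was at 87.9 and 93.0 CPM in B cells, 91.3 and 89.8 CPM in T cells and 147 and 155 CPM in classical monocytes. Uqcrc1, a core subunit, spanned 66.0 to 86.8 CPM over the flox gates and 68.4 to 82.9 CPM over the knockout gates.

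Complex IV, cytochrome c oxidase, was 1.48 and 1.45 times the B level in NK cells and 1.44 and 1.48 times in classical monocytes. Cox5a was at 174 and 186 CPM in B cells, 249 and 266 CPM in T cells and 257 to 321 CPM in the other 4 gates, and Cox5b at 223 and 213 CPM in B cells and 270.1 CPM or more elsewhere. Cox4i1, the common isoform of subunit 4, was at 501 and 479 CPM in B cells and 754 and 799 CPM in classical monocytes. Cox4i2, its lung isoform, had 8 and 3 UMIs in all. Ndufa4, now counted with complex IV, was at 476 and 451 CPM in NK cells and 261 and 268 CPM in B cells, and its relative Ndufa4l2 had no UMI in either library. Cox7a2 was at 220 and 223 CPM in B and 355 CPM in NK cells of both libraries, and Cox7a2l, which helps to join complexes III and IV, was lowest in NK cells, at 226 and 230 CPM. The muscle isoform Cox7a1 had 40 and 42 UMIs. Cox8a was at 584 and 541 CPM in B and 956 and 953 CPM in NK cells, and Cox8c and Cox7b2 had no UMI. Common isoforms were therefore read in every gate and most tissue-restricted isoforms at or near 0.

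Cox6b2 and Cox6a2 were exceptions, and both were called higher in the dendritic gate, where the background was 8.38%, while 0 members were called lower there, against 22.7%. Cox6b2, known from testis, was at 22.9 and 19.9 CPM in the dendritic gate, 9.99 and 12.6 CPM in classical monocytes, 5.56 and 4.83 CPM in nonclassical monocytes and at most 2.35 CPM in lymphoid gates. Its common counterpart Cox6b1 was between 252 and 457 CPM in all gates. In the flox dendritic gate 43 of 203 cells held the 86 Cox6b2 UMIs and in the knockout 34 of 150 cells held 54, and none were in cells with Siglech or Ccr9 (at least 2 UMIs of both together).

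Cox6a2, the heart and muscle isoform of subunit 6a, had the reverse distribution within the dendritic gate. It had 267 UMIs in 17 flox cells and 343 UMIs in 15 knockout cells. Of these, 259 UMIs were in the 20 flox cells with Siglech or Ccr9 and 341 in the 18 such knockout cells. The other dendritic cells held 8 and 2 UMIs, or 2.34 and 0.827 CPM, against 753 and 1147 CPM in the Siglech and Ccr9 cells. Flox cells of no gate held 112 Cox6a2 UMIs in 9 cells. Of these, 103 were in 5 of the 40 such cells with Siglech or Ccr9. In the other gates Cox6a2 was rare. Of the 40 UMIs in flox NK cells 38 were in 1 cell, as were 35 of the 39 in knockout T, 19 of the 21 in knockout B and 9 of the 17 in flox nonclassical monocytes. Flox T cells held 10 UMIs in 9 cells, while flox B cells, flox classical monocytes, knockout NK cells and both knockout monocyte gates held 0 to 4 each with at most 1 UMI in a cell. Cox6a1, the common isoform, was at 270 and 229 CPM in the dendritic gate and 193 and 181 CPM in B cells. Cox8b, a muscle isoform, was at 11.8 CPM in knockout classical monocytes, all 58 UMIs in 2 cells with at least 5 UMIs of RPE or photoreceptor markers, and at 0 in flox classical monocytes.

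ATP synthase subunits together were 1.45 and 1.395 times the B level in dendritic cells and 1.23 and 1.19 times in nonclassical monocytes. Atp5h, of the peripheral stalk, was at 310.5 and 295 CPM in B cells and 419 to 586 CPM in the other gates. Atp5l was at 322 and 337 CPM in B cells and 605 and 597 CPM in classical monocytes, and Atp5j2 at 229 and 226 CPM in B cells against 365 and 359 CPM in T cells. The catalytic subunits differed less: Atp5b was at 221 and 207 CPM in B, 250 and 248 CPM in T and 195 CPM in nonclassical monocytes of both libraries, and Atp5a1 spanned 217 to 274 CPM over the flox gates and 221 to 300 CPM over the knockout gates. The 3 genes for the same c-ring protein did not all have the same gate at the top. Atp5g1 was highest in dendritic cells, at 268 and 234 CPM, as was Atp5g2, at 470 and 482 CPM. Atp5g3 was highest in NK cells, at 179 and 176 CPM, and lowest in B cells, at 120 and 123 CPM.

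The mitochondrially encoded subunits were highest in B cells, where the nuclear members were lowest. The 13 genes took 2.09% and 2.03% of UMIs in B cells, 1.74% and 1.69% in T cells and 1.08% to 1.32% in the other gates, and 0 of the 13 was above its B level in any other gate in both libraries. UMIs of nuclear members over UMIs of mitochondrially encoded subunits were 0.658 and 0.673 in B cells and 0.975 and 0.990 in T cells. The ratio was 1.55 and 1.38 in NK cells, 1.57 and 1.503 in classical monocytes, 1.59 and 1.38 in nonclassical monocytes and 1.61 and 1.43 in dendritic cells. For complex IV alone it was 0.350 and 0.361 in B cells and 0.934 and 0.815 in NK cells. Both kinds of subunit meet in the same complexes. Among the other 4 gates the orders of the nuclear and mitochondrially encoded genes did not mirror each other: nonclassical monocytes were below classical monocytes for the nuclear members (1.72% and 1.92% in flox, 1.66% and 1.89% in knockout) and for the mitochondrially encoded subunits (1.08% and 1.22%, 1.198% and 1.26%). How efficiently each kind of transcript is captured was not tested.

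Other lists of the pathway gave further contrasts with B cells. Glycolysis genes summed to 1.52 and 1.498 times the B level in T cells and 2.05 and 2.12 times in classical monocytes, with 13 of 15 genes above B in both libraries in that gate. Citric acid cycle genes were within 0.984 and 1.07 times the B level in the T, NK and monocyte gates and 1.38 and 1.34 times in dendritic cells, with 8 of 17 genes above B. Regulators of mitochondrial biogenesis were at 0.658 and 0.697 times the B level in classical monocytes. Among them, Tfam, the mitochondrial DNA packaging factor, was at 79.9 and 95.7 CPM in B cells and 20.8 and 22.9 CPM in classical monocytes, and Ppargc1a, a coactivator of these genes in muscle and brown fat, had at most 34 UMIs in B and 18 in T cells.

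Shares in single cells were spread more widely than those of gates, which are sums over many cells. Flox B cells held a median of 80 member UMIs, so counting error is part of this spread. How large a part was not tested. In flox B cells the share of UMIs from the members had a 10th percentile of 0.989%, a median of 1.35% and a 90th percentile of 1.83%, and in flox classical monocytes the same points were 1.47%, 1.93% and 2.54%. T cells with at least 2 UMIs of Mki67 and Top2a, genes of dividing cells, had 1.97% and 1.85% of UMIs in members, against 1.66% and 1.65% in the other T cells. NK cells differed the same way, at 2.23% and 2.11% against 1.84% and 1.79%, and B cells at 1.82% and 1.41% against 1.36% in both libraries. Dendritic cells went the other way, at 1.87% and 1.68% against 1.98% and 1.88%, as did nonclassical monocytes, at 1.68% and 1.52% against 1.72% and 1.66%. In classical monocytes the direction differed between the libraries, at 1.71% against 1.93% in flox and 1.94% against 1.89% in knockout. The dividing cells numbered 117 and 131 in the T gate and between 7 and 28 in each of the others. In knockout B cells the counting interval of the dividing cells, 1.34% to 1.49%, covered the share of the other cells. The same held in flox nonclassical monocytes (1.64% to 1.73%) and knockout classical monocytes (1.86% to 2.02%). Cells with Cd4 had 1.59% and 1.61%, and cells with Cd8 1.71% and 1.67%. Among monocytes the share was 1.98% and 1.95% in the classical gate alone, 1.85% and 1.82% in both gates and 1.63% and 1.57% in the nonclassical gate alone. The cells in both gates thus lay between the others in each library.

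**Figure D4:**
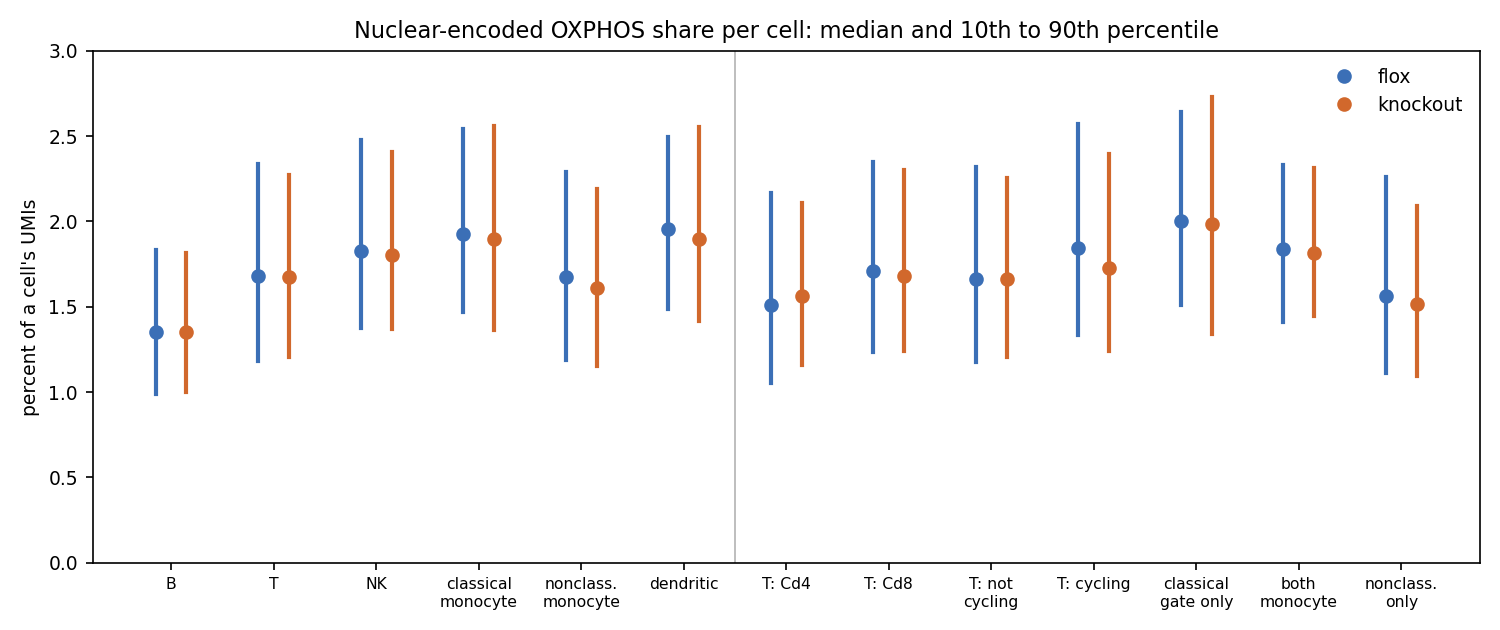
Percent of a cell's UMIs from the 98 genes, as the median (point) and the 10th to 90th percentile over cells (line), in the 6 gates and in subsets of T cells and monocytes, flox in blue and knockout in orange. The ranges of the gates overlap, the flox medians run from 1.35% in B cells to 1.95% in dendritic cells, and cycling T cells sit above the other T cells.

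Between the libraries the members as a set differed little. The summed level in knockout over flox was 0.992 (95% interval 0.982 to 1.002) in B cells, 0.985 (0.980 to 0.991) in T cells, 0.984 (0.976 to 0.993) in classical monocytes, 0.963 (0.955 to 0.972) in nonclassical monocytes, 0.961 (0.947 to 0.975) in NK cells and 0.948 (0.937 to 0.959) in dendritic cells. The median member was at 0.008, -0.010, -0.032, -0.025, -0.054 and -0.097 on the log2 scale in B cells, T cells, NK cells, classical monocytes, nonclassical monocytes and dendritic cells. The medians of all genes compared were -0.009, 0.019, 0.001, 0.025, 0.024 and 0.016 in the same order. In dendritic cells 62 of 81 members were lower in the knockout library, against 46.5% of all genes compared there. The counts were 62 of 85 in nonclassical monocytes (44.1% of all genes), 51 of 84 in classical monocytes (43.8%) and 49 of 74 in NK cells (49.7%). In T cells 49 of 90 were lower (45.0%), and in B cells 40 of 85 (52.3%). Direction depended on the cells used: in B cells the summed log2 ratio was 0.064 in cells with Y-linked UMIs alone and in T cells 0.072, whereas in T cells with Xist alone it was -0.049. In the flox T gate 976 cells had Xist alone and 200 Y-linked UMIs alone, against 532 and 668 in the knockout T gate. The libraries were counted with different Cell Ranger versions, and all-gene ratios moved with intron length, most clearly in B cells, T cells and classical monocytes. The median log2 ratio was 0.058 for genes without an intron and -0.099 for those with the longest introns in B cells, and 0.045 and -0.059 in T cells. The same classes were at 0.051 and -0.021 in NK cells and 0.087 and -0.027 in classical monocytes. They were at 0.087 and -0.0046 in nonclassical monocytes and 0.084 and 0.0017 in dendritic cells. In those last 2 gates the class before the longest was at 0.039 and 0.026. Only in classical monocytes did the ratio fall at every step of intron length. In the middle class of intron length, which held the most members, the members' median was -0.12 in dendritic cells and 0.014 in B cells, against -6.5e-04 and 0.034 for all genes of that class. The part of intronic reads in the ratios between libraries was not tested. Mitochondrially encoded subunits stood at 1.08 in NK cells, 1.11 in nonclassical monocytes and 1.07 in dendritic cells, the 3 gates where the nuclear members were furthest below 1.

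Few single members differed between the libraries. A member was called when 1 library was at least 25% above the other with an interval that leaves out a ratio of 1, among genes whose UMIs in the gate summed to at least 200 over the libraries. In B cells 0 of 85 were called, where the background was 3.59% higher and 7.42% lower. In T cells 1 of 90 was called higher, where the background was 5.61% higher and 6.23% lower. In NK cells 2 of 74 were called lower, where it was 4.40% higher and 4.93% lower. In classical monocytes 1 of 84 was called higher (background 6.12% higher, 6.71% lower), in nonclassical monocytes 1 of 85 lower (4.61% higher, 5.83% lower) and in dendritic cells 1 of 81 higher (7.12% higher, 6.53% lower). In each gate, in both directions together, a smaller share of the members than of all genes was called.

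**Figure D5:**
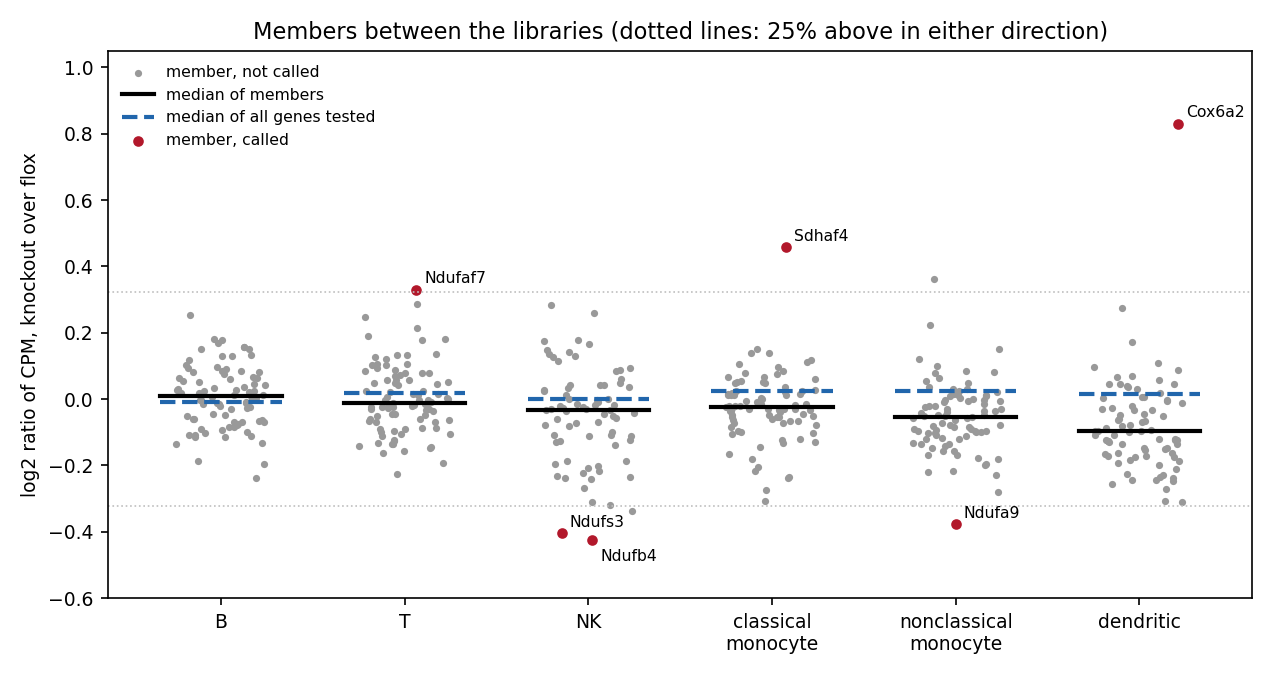
Each point is a member with at least 200 UMIs in a gate, at the log2 ratio of its CPM in knockout over flox; red points are called, the black line is the members' median, the dashed blue line the median of all genes compared, and dotted lines mark 25% above in either direction. The members' median lies below that of all genes in every gate except B.

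The called members are as follows. Cox6a2 in the dendritic gate stood at 71.0 CPM in the flox library and 126 CPM in the knockout library, 1.78 times (1.51 to 2.09). Over all kept cells, in any gate or none, it was at 12.4 and 11.8 CPM, with 435 UMIs in 43 flox cells and 423 in 32 knockout cells. Its UMIs were thus concentrated in few cells, which the counting interval does not cover. Without the Siglech and Ccr9 cells its log2 ratio was -1.27, from few UMIs, and in cells with Xist alone -0.78. Ndufs3, a core subunit of complex I, was at 67.2 and 50.8 CPM in NK cells, 0.756 times (0.578 to 0.987), with a log2 ratio of -0.33 and no call in cells with Xist alone, and Ndufb4, an accessory subunit, at 149 and 111 CPM, 0.744 times (0.623 to 0.889). Ndufa9, an accessory subunit, was at 37.5 and 28.8 CPM in nonclassical monocytes, 0.769 times (0.632 to 0.935), and its log2 ratio was -0.21 in cells of exactly 1 gate, where it was not called. Ndufaf7 was at 14.3 and 18.0 CPM in T cells, 1.26 times (1.04 to 1.53), and its log2 ratio was 0.043 in cells with Xist alone. Sdhaf4, a complex II assembly factor, was at 16.4 and 22.5 CPM in classical monocytes, 1.37 times (1.04 to 1.81). It was not called without the cells with RPE and photoreceptor markers or in cells of exactly 1 gate. Nor was it called with gate minima raised by 1 or in cells with Y-linked UMIs alone. Over the alternatives its log2 ratio ran from 0.34 to 0.81. The 7 genes for electron carriers outside the set gave 27 gate comparisons with enough UMIs, of which 1 was called higher and 2 lower. The background over the gates was 3.59% to 7.12% higher and 4.93% to 7.42% lower, so these calls were about as frequent as among all genes. Coq9, which acts in ubiquinone synthesis, was at 8.42 and 12.8 CPM in T cells, 1.52 times (1.19 to 1.95). Both lower calls were Cycs: this gene, which encodes cytochrome c, was at 143 and 113 CPM in T cells and 235 and 186 CPM in NK cells, 0.791 times in both. Its ratio was 0.888 in B cells, 0.879 in dendritic cells, 0.970 in classical and 0.996 in nonclassical monocytes, with no call.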

How the data were processed

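Each library was deposited as a matrix of whole-number UMI counts per gene and barcode; per the file headers the deposited counts were made with Cell Ranger 4 (flox) and 7.0.1 (knockout), and per the submitters' processing notes on mm10. Neither source says whether intronic reads were counted; the later version counts them by default and the earlier one does not, which bears on every ratio between libraries. The flox matrix holds 1002803 barcodes and the knockout matrix 4096, with 38623933 and 35944330 UMIs. Counts were summed over the cells of a gate and scaled to CPM. The gates, from raw UMIs, were Cd79a at least 2 (B), Cd3d and Cd3e at least 2 (T), Ncr1 at least 1 without Cd3d or Cd3e (NK), F13a1 and Chil3 at least 3 (classical monocyte), Cd300e and Adgre4 at least 2 (nonclassical monocyte), and Cd209a and Clec10a at least 2 (dendritic). Cells in several gates were counted in each.

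Intervals are exact Poisson for levels and exact conditional binomial for ratios; log2 ratios add 0.5 UMIs. Calls used a minimum of 200 UMIs and a difference of 25% between libraries or 1.5-fold between gates. The call rule was tested on simulated data. Doublets were kept; Scrublet (scanpy 1.11.5) marked 24 flox (0.702%) and 56 knockout (1.41%) cells, which were left out as an alternative. Named genes were the called members (up to 4 per direction and gate), the isoform families, succinate dehydrogenase and some catalytic subunits; Cox6a2 and Cox8b counts per cell, Ndufa1, Atp5h, Atp5l, Atp5j2, Cox5a, Cox5b, Uqcrq, Uqcr11 and Coq9 were added after their values were seen. Members and lists were chosen with earlier results of these data known, and Ndufb1-ps was given its role after the matrices were read. Of the members, 1 overlaps another gene on the same strand (Ndufa13) and 32 on the other.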

Additional observations from a re-analysis of the deposited data

Results flagged for a closer look

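Some cells and barcodes lie outside every comparison. In cells of no gate, 319 in flox and 323 in knockout, the members took 1.99% and 1.80% of UMIs, above all 6 flox gates and 3 of the 6 knockout gates. These include cells with at least 5 UMIs of RPE or photoreceptor markers, 10 in flox and 12 in knockout, in which the members took 3.49% and 3.53%. In flox barcodes of 100 UMIs or fewer, which hold mostly free RNA, the members took 1.91% of UMIs. The knockout matrix has no such barcodes, so its free RNA was not measured.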

How the results depend on the processing

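With 1 library per group there is no replicate error, and all values cover counting error only. No paired analysis was possible because each group has 1 library. The 17 alternatives comprised 15 planned ones and 2, without Siglech and Ccr9 cells and without RPE and photoreceptor marker cells, chosen after seeing the data. A sum, a median over members or a median over cells counted as moved when it left the 95% counting or binomial interval of the reported value, and a count when it passed 1.5 times. The background profile came from flox barcodes alone and was taken off both libraries at an assumed 5% of UMIs, because the knockout matrix holds no such barcodes. The B gate kept the lowest summed level throughout. The summed knockout over flox log2 ratio was below 0 under every alternative in NK cells (-0.10 to -0.012), nonclassical monocytes (-0.13 to -0.034) and dendritic cells (-0.11 to -0.025), and took both signs in B cells, T cells and classical monocytes. The causes of the changes below were not tested.

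With cells in exactly 1 gate, the summed log2 ratio between libraries was -0.029 in B cells and -0.034 in nonclassical monocytes and the members' median log2 ratio was 0.014 in classical monocytes. In the same setting, calls between libraries numbered 0 in classical monocytes and the myeloid over lymphoid log2 ratio was 0.17 in the knockout library. Under this setting, the median cell's percent was 2.05 in flox classical monocytes, 1.56 in flox nonclassical monocytes, 2.01 in knockout classical monocytes and 1.52 in knockout nonclassical monocytes. With the mean of each cell's CPM, the summed log2 ratio between libraries was 0.011 in B cells, -0.013 in T cells, -0.012 in NK cells and -0.029 in dendritic cells and the members' median log2 ratio was -0.054 in dendritic cells. Here calls between libraries numbered 4 in NK cells, 2 in classical monocytes, 2 in nonclassical monocytes and 2 in dendritic cells and calls between libraries over all gates numbered 11. With it, calls against the other gates numbered 4 in dendritic cells and the myeloid over lymphoid log2 ratio was 0.15 in the knockout library. With cells thinned to 1000 UMIs, the summed log2 ratio between libraries was 0.032 in B cells, -2.91e-04 in T cells, -0.033 in NK cells, 0.0055 in classical monocytes and -0.025 in dendritic cells and the members' median log2 ratio was 0.031 in B cells, -0.0075 in NK cells, 0.0020 in classical monocytes and -0.17 in dendritic cells. Under this setting, calls between libraries numbered 1 in B cells, 4 in T cells, 1 in NK cells, 3 in classical monocytes and 0 in dendritic cells and calls between libraries over all gates numbered 10. In the same setting, calls against the other gates numbered 8 in B cells, 3 in T cells, 3 in classical monocytes and 2 in nonclassical monocytes and calls against the other gates over all gates numbered 22. Under this setting, members lowest in B cells numbered 35 and the median cell's percent was 1.600 in flox T cells, 1.600 in flox nonclassical monocytes, 1.300 in knockout B cells, 1.700 in knockout T cells and 1.75 in knockout NK cells. Scaled without mitochondrial and ribosomal protein UMIs, the summed log2 ratio between libraries was 0.016 in B cells and -0.012 in T cells and the members' median log2 ratio was 0.036 in B cells. Under this setting, calls against the other gates numbered 5 in B cells and 4 in NK cells and the myeloid over lymphoid log2 ratio was 0.083 in the flox library and 0.065 in the knockout library. In cells with Y-linked UMIs alone, the summed log2 ratio between libraries was 0.064 in B cells, 0.072 in T cells, -0.101 in NK cells, -0.086 in classical monocytes, -0.13 in nonclassical monocytes and -0.054 in dendritic cells and the members' median log2 ratio was 0.062 in B cells, 0.076 in T cells, -0.11 in NK cells, -0.076 in classical monocytes, -0.11 in nonclassical monocytes and -0.055 in dendritic cells. In the same setting, calls between libraries numbered 3 in B cells, 5 in T cells, 0 in classical monocytes, 3 in nonclassical monocytes and 3 in dendritic cells and calls between libraries over all gates numbered 17. Under this setting, calls against the other gates numbered 26 in B cells, 4 in NK cells, 4 in classical monocytes, 2 in nonclassical monocytes and 1 in dendritic cells and the myeloid over lymphoid log2 ratio was 0.304 in the flox library and 0.21 in the knockout library. In the same setting, the median cell's percent was 1.23 in flox B cells, 1.57 in flox T cells, 2.03 in flox classical monocytes, 1.85 in flox nonclassical monocytes, 1.31 in knockout B cells, 1.64 in knockout T cells and 1.76 in knockout NK cells. With no UMI minimum for genes, calls between libraries numbered 1 in B cells, 3 in T cells, 5 in NK cells, 3 in classical monocytes, 2 in nonclassical monocytes and 4 in dendritic cells and calls between libraries over all gates numbered 18. Scaled by the median ratio, the summed log2 ratio between libraries was -0.041 in T cells, -0.048 in classical monocytes and -0.078 in nonclassical monocytes and the members' median log2 ratio was -0.030 in T cells and -0.051 in classical monocytes. With it, calls between libraries numbered 0 in T cells, 2 in classical monocytes and 3 in dendritic cells. In cells with Xist alone, the summed log2 ratio between libraries was -0.049 in T cells and 0.0055 in classical monocytes and the members' median log2 ratio was -0.047 in T cells and -0.060 in dendritic cells. Here calls between libraries numbered 0 in T cells, 2 in nonclassical monocytes and 7 in dendritic cells and calls between libraries over all gates numbered 13. With it, calls against the other gates numbered 7 in B cells and the myeloid over lymphoid log2 ratio was 0.14 in the flox library. Here the median cell's percent was 1.71 in flox T cells and 1.83 in flox classical monocytes. With the background profile subtracted, calls between libraries numbered 4 in NK cells, 2 in classical monocytes and 3 in dendritic cells and calls between libraries over all gates numbered 11. Here calls against the other gates numbered 4 in dendritic cells and the myeloid over lymphoid log2 ratio was 0.18 in the flox library and 0.16 in the knockout library. Without RPE and photoreceptor marker cells, the summed log2 ratio between libraries was -0.038 in classical monocytes and the members' median log2 ratio was -0.046 in classical monocytes. With it, calls between libraries numbered 0 in classical monocytes. With gate minima raised by 1, the summed log2 ratio between libraries was -0.11 in dendritic cells and calls between libraries numbered 0 in classical monocytes and 4 in dendritic cells. Here the myeloid over lymphoid log2 ratio was 0.14 in the knockout library. With called doublets left out, calls between libraries numbered 2 in nonclassical monocytes. Without Siglech and Ccr9 cells, calls between libraries numbered 0 in dendritic cells.

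Of single members, Cox6a2 in the dendritic gate had a knockout over flox log2 ratio of -0.78 with Xist cells alone and -1.27 without Siglech and Ccr9 cells, and without those cells its flox log2 fold against the other gates was -1.09. In Y-linked cells alone the flox fold of Sdhaf1 in NK cells was 0.12 and that of Sdhaf4 in nonclassical monocytes 0.032.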

Other observations

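Further gene lists of the mitochondrion were read in the same gates. The 78 mitochondrial ribosomal protein genes, which translate the mitochondrially encoded subunits, summed to 1.18 and 1.19 times the B level in T cells (flox and knockout) and to 1.37 and 1.35 times in dendritic cells. They were thus higher outside B cells, as the nuclear subunits were and the mitochondrially encoded subunits were not. The 7 ATP and phosphate carrier genes, which move ATP, ADP and phosphate across the inner membrane, summed to 1.48 and 1.61 times the B level in classical monocytes and to 1.15 and 1.11 times in NK cells. Slc25a5, an ADP/ATP carrier, was at 213 and 208 CPM in B cells and 449 and 474 CPM in classical monocytes. The 23 assembly factors of complexes III and IV summed to 1.23 and 1.19 times the B level in T cells and 1.07 and 1.12 times in classical monocytes.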
